A study of Mus musculus with 18 samples.

Results

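The 9 genes described here carry out and control the storage of glucose as glycogen in the liver: *Gys2*, *Gyg*, *Gbe1*, *Pygl*, *Ugp2*, *Ppp1r3b*, *Ppp1r3c*, *Ppp1r3g* and *Phka2*. They were chosen by symbol and matched to their Ensembl identifiers, and are 9 of the 22524 genes listed and 9 of the 13353 genes with enough reads to be tested. Liver RNA came from 10 female mice heterozygous for *Rps2*-A226Y, a ribosomal protein mutation that raises the error rate of translation, and from 8 female wild-type mice (WT), with 1 RNA-Seq library per mouse. All were 15 months old and on a C57BL/6 background. The WT mice expressed Cre recombinase. The A226Y line was made by a cross to CMV-Cre mice, in which Cre is expressed in all tissues. Whether the A226Y mice measured here still carried that transgene is not given in the sources used here. The comparison asks how the liver transcriptome differs between mice with and without the mutation. The knock-in was made in 129/Sv embryonic stem cells, and its allele holds a transcriptional stop-cassette between *loxP* sites in exon 1. Excision by Cre is partial, so that the liver of an A226Y mouse is a mosaic of cells that express the mutant allele and cells in which this allele stays silent and only the wild-type copy of *Rps2* is used. Feeding state and time of day at killing are not given in the sources used here.

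Glycogen is a branched polymer of glucose that hepatocytes build after a meal and break down between meals to keep blood glucose stable. UDP-glucose pyrophosphorylase (*Ugp2*) makes the activated glucose donor, glycogenin (*Gyg*) primes a new chain, glycogen synthase (*Gys2*, the liver form) lengthens it and the branching enzyme (*Gbe1*) adds branch points. Liver glycogen phosphorylase (*Pygl*) releases glucose units and is switched on by phosphorylase kinase, whose regulatory alpha subunit in liver is encoded by *Phka2*. Protein phosphatase 1 reverses this phosphorylation and activates glycogen synthase once a targeting subunit has brought it to the glycogen particle. *Ppp1r3b*, *Ppp1r3c* and *Ppp1r3g* encode 3 such targeting subunits. These are textbook roles and the files measure RNA only, neither glycogen nor enzyme activity.

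Levels are CPM values, the reads of a gene per 1000000 reads of the library after TMM scaling, in which edgeR adjusts library sizes so that most genes keep the same level. Total counts ranged from 25869192 to 34918732 in WT mice and from 23850565 to 62126131 in A226Y mice. The targeted gene *Rps2* followed the labels. It was at 104 to 143 CPM in WT mice and at 46.9 to 83 CPM in A226Y mice (log2 fold change −0.73, SE 0.11, adjusted p = 0.000772), and all 10 A226Y mice lay below every WT mouse. A gene was called when its p from edgeR's quasi-likelihood test, adjusted over all 13353 genes (Benjamini-Hochberg), was under 0.05. At that threshold 7.27% of all tested genes were higher and 7.03% lower in A226Y, and log2 fold changes of all genes had a median of −0.004. None of the 9 genes lies on chromosome 17, where *Rps2* is located.

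Of the 9 genes, 2 were called lower in A226Y (*Ppp1r3b* and *Phka2*) and 0 were called higher, against the background of 7.03% and 7.27%. With an unadjusted p under 0.05, 3 of 9 were lower (14.7% of all genes) and 0 of 9 higher (14.9% of all genes), *Pygl* being the third. DESeq2 and limma-voom called the same 2 genes and no member as higher. Log2 fold changes were negative for 8 of 9 and positive for 1, with a median of −0.19. In 0 of 9 were the ranges of both genotypes separate, while 85 of 13353 genes (0.637%) had ranges that did not overlap. The 2 calls were narrow, since both adjusted p-values lay just under the threshold (0.0483 and 0.0488). Of the 10 other processing choices, 4 lost *Ppp1r3b* and 5 lost *Phka2*. Because a tissue sample mixes cells, less RNA per cell and fewer cells that express a gene cannot be told apart.

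**Figure D1:**
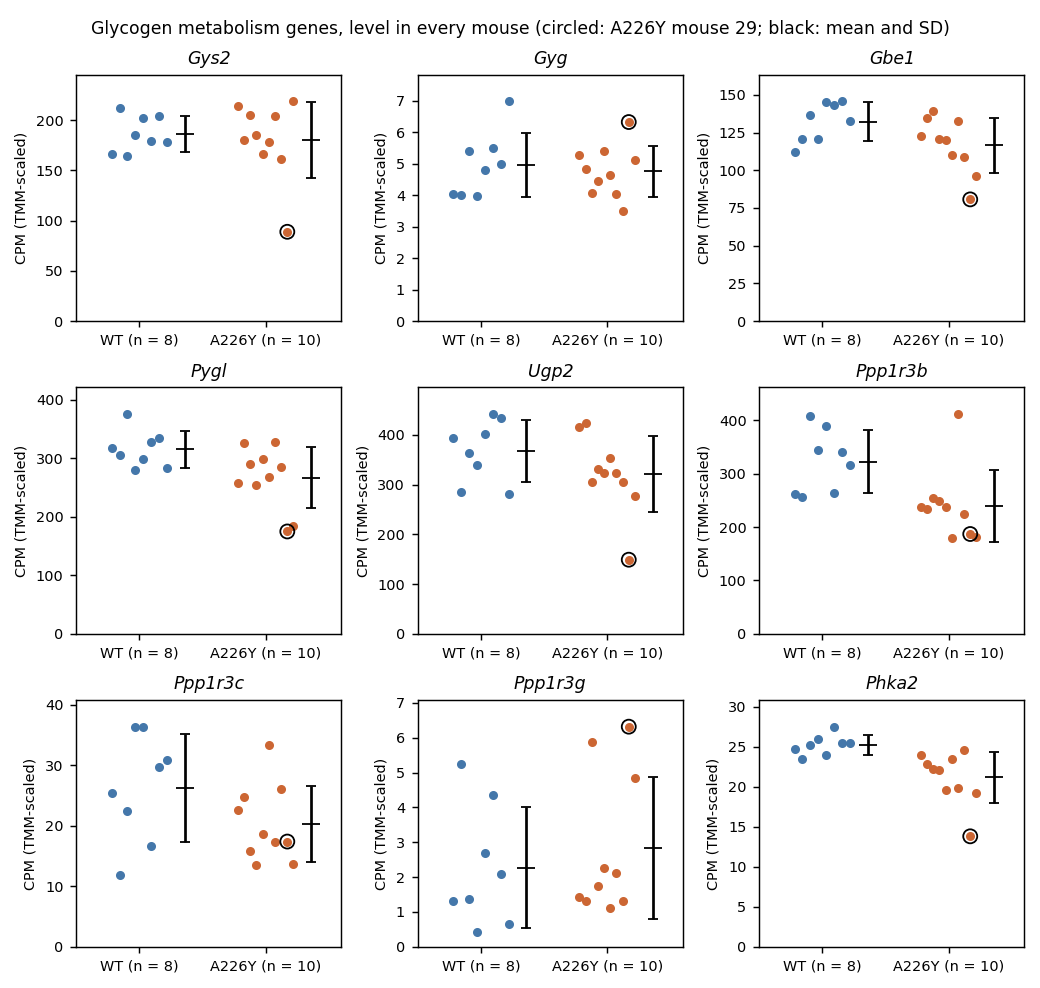
Level of each of the 9 genes in CPM (vertical axes, from 0) in the 8 WT mice (blue) and the 10 A226Y mice (orange), with the mean and SD in black and A226Y mouse 29 circled. 9 of 10 A226Y mice lie below all WT mice for *Ppp1r3b*, 7 of 10 for *Phka2*, 5 of 10 for *Pygl* and 4 of 10 for *Gbe1*. For the other genes the points of both genotypes largely overlap.

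Promoter sequences are given for 3 members: *Phka2*, which was called, *Pygl*, the enzyme that phosphorylase kinase acts on, and *Ppp1r3c*, whose level varied most clearly against that of another member. The RefSeq promoter table (GRCm38.p6) held 7 of the 9 members with 8 start sites, and *Gys2* and *Ppp1r3b* were not among them. In the 250 bases before each start, 3 motifs were searched on both strands. They were the E-box CACGTG, bound by clock and nutrient-responsive factors, TGACG, the core of the site bound by CREB, which acts downstream of glucagon, and the GC box GGGCGG, bound by Sp1. Sequences run 5′ to 3′ on the gene's strand and capitals mark the motifs, which do not overlap. The *Phka2* and *Pygl* stretches end at the base before the RefSeq start. This start differs from the outermost start of the GENCODE gene given with each gene further on, and the *Pygl* stretch lies within the GENCODE gene but in none of its exons. The *Ppp1r3c* stretch leaves out the last 49 bases, which GENCODE counts as exon.
*Phka2*, chrX:160501912-160502161, plus strand: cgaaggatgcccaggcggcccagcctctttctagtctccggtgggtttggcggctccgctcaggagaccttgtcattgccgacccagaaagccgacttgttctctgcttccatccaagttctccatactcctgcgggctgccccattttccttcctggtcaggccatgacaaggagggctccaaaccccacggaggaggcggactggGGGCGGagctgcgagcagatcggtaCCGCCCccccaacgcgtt
*Pygl*, chr12:70227684-70227933, minus strand: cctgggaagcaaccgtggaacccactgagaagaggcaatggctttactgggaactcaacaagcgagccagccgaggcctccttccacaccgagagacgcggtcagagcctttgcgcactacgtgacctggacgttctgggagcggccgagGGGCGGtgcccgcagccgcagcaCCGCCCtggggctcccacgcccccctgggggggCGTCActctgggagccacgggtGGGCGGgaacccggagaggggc
*Ppp1r3c*, chr19:36736654-36736854, minus strand: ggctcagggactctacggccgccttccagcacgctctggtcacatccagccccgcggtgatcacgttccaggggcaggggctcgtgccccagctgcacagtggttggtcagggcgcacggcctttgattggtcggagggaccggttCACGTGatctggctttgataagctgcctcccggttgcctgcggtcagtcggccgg
*Phka2* held 2 GC boxes, at 43 and 18 bases before the start, the latter as CCGCCC on the printed strand. *Pygl* held 3 GC boxes, at 100, 77 and 22 bases, and 1 CREB core site at 44 bases, printed as CGTCA. *Ppp1r3c* held the only E-box among the 8 windows, 104 bases before its start. *Ppp1r3g* held 1 CREB core site at 40 bases and 1 GC box at 54 bases, but the last 53 bases of its window are annotated as exon, so that the former lies in exon and the latter runs into it, and *Gbe1* held none of the 3 motifs. Among all 32851 windows of the table, 6.02% held the E-box, 17.8% the CREB core site and 32.7% the GC box. Such matches describe the letters of the window and are no measure of binding.

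Per kilobase of its longest transcript, and over all 18 mice, *Ugp2* was the most abundant member at 127 ± 27 CPM per kb (SD). It was followed by *Pygl* at 91.5 ± 15.8, *Gys2* at 68.8 ± 11.3, *Ppp1r3b* at 63 ± 17 and *Gbe1* at 33.1 ± 4.69 CPM per kb. The ranges over mice of neighbours in this order overlapped from *Ugp2* to *Ppp1r3b*, whereas the highest *Gbe1* value (39.2 CPM per kb) was under the lowest *Ppp1r3b* value (40.9 CPM per kb). A clear step lay between these 5 genes and the next, *Ppp1r3c* at 8.42 ± 2.9 and *Phka2* at 5.29 ± 0.738 CPM per kb, which overlapped with each other. *Gyg* at 2.52 ± 0.463 and *Ppp1r3g* at 1.08 ± 0.785 CPM per kb were the lowest and overlapped as well. Length matters for the order, because per kilobase of all exons merged *Ppp1r3b* (44.5) came before *Pygl* (41.8) and both after *Gys2* (68.8). On the longest-transcript scale the order of *Gys2* and *Ppp1r3b* also depended on genotype, with 70.1 ± 6.8 and 73.5 ± 13.4 CPM per kb in WT mice (SD, n = 8) and 67.8 ± 14.2 and 54.6 ± 15.2 in A226Y mice (SD, n = 10).

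*Ugp2* (ENSMUSG00000001891; chromosome 11, 21321138 to 21371201, minus strand), the source of UDP-glucose, ranged from 281 through a median of 378 to 442 CPM in WT mice and from 149 through 324 to 424 CPM in A226Y mice. The groups overlapped over almost the whole WT range, and 2 A226Y mice lay below every WT mouse. The log2 fold change of −0.19 (SE 0.15, adjusted p = 0.4) did not pass the test. Its exons share 78 bases with *Gm12043* on the opposite strand, and whether the counting used strand is not given in the sources used here.

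*Gyg* (ENSMUSG00000019528; chromosome 3, 20122084 to 20155317, minus strand), the primer of new glycogen chains, stood at 3.98, 4.89 and 6.99 CPM in WT mice (lowest, median, highest) and at 3.49, 4.73 and 6.32 CPM in A226Y mice. Its log2 fold change was −0.06 (SE 0.12, adjusted p = 0.786). The groups overlapped over nearly the whole range, with WT mouse 33 and A226Y mouse 29 the highest of their groups.

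*Gys2* (ENSMUSG00000030244; chromosome 6, 142422613 to 142473109, minus strand), the rate-limiting enzyme of glycogen synthesis, had the same median of 182 CPM in both genotypes. WT mice lay between 164 and 212 CPM, and A226Y mice between 88.8 and 219 CPM. A single A226Y mouse, number 29, made up the low end, since the other 9 lay between 161 and 219 CPM. The log2 fold change was −0.05 (SE 0.12, adjusted p = 0.828) and became 0.03 without that mouse.

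*Gbe1* (ENSMUSG00000022707; chromosome 16, 70313949 to 70569716, plus strand), which adds the branches, was at 112, 135 and 146 CPM in WT mice (lowest, median, highest) and at 80.7, 120 and 139 CPM in A226Y mice, of which 4 lay below every WT mouse. The log2 fold change was −0.18 (SE 0.09, adjusted p = 0.191). An exact permutation test over all 43758 divisions of the 18 mice into 10 and 8, two-sided on log2 CPM and not adjusted for the 9 genes, gave p = 0.0596.

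*Pygl* (ENSMUSG00000021069; chromosome 12, 70190811 to 70231488, minus strand), which releases glucose from glycogen, was at 280, 311 and 376 CPM in WT mice and at 175, 276 and 328 CPM in A226Y mice. Of the 10 A226Y mice 5 lay within the WT range and 5 below it. The log2 fold change was −0.24 (SE 0.11, unadjusted p = 0.0404, adjusted p = 0.148), so *Pygl* was not called, and the exact permutation test gave p = 0.0341. That permutation p was 0.0719 with library size only. It stayed under 0.05 in 13 of the 18 tests without 1 mouse (up to 0.0822). Mice 29 and 32 were the lowest A226Y mice at 175 and 185 CPM.

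*Phka2* (ENSMUSG00000031295; chromosome X, 160502166 to 160598878, plus strand), the subunit through which phosphorylase kinase is regulated, was lower in A226Y. WT mice spanned a narrow range of 23.4 to 27.5 CPM around a median of 25.3, and A226Y mice spanned 13.8 to 24.6 CPM around 22.2. Of the A226Y mice 7 of 10 lay below every WT mouse and 10 of 10 below the WT mean of 25.2 ± 1.24 CPM (SD, n = 8). The mean of 21.2 ± 3.2 CPM (SD, n = 10) came with a fitted difference of −15.9%, a log2 fold change of −0.25 (SE 0.08, adjusted p = 0.0488) and an exact permutation p of 0.00226. Without A226Y mouse 29 the log2 fold change was −0.19. Leaving out single mice gave adjusted p-values from 0.0211 to 0.0915, and the call held in 6 of these 18 fits, those without A226Y mouse 3, 5, 18, 23 or 29 or WT mouse 6. Exons of *Phka2* share 115 bases with the antisense gene *Gm15243*, whose reads cannot be told apart from its own if strand was not used.

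*Ppp1r3b* (ENSMUSG00000046794; chromosome 8, 35375739 to 35388139, plus strand) encodes GL, the main hepatic subunit that directs protein phosphatase 1 to glycogen. It showed the largest decrease among the 9 genes in the main fit. *Ppp1r3c* was close (−0.37, SE 0.21), and without A226Y mouse 18 the order turned (−0.39 for *Ppp1r3b* and −0.47 for *Ppp1r3c*). The 8 WT mice lay at 256, 261, 264, 317, 341, 344, 389 and 407 CPM. Of the A226Y mice, 9 lay at 179, 181, 187, 224, 234, 237, 238, 249 and 254 CPM, all below the lowest WT mouse, and the 10th, mouse 22, lay at 412 CPM, above the highest. The means were 322 ± 58.7 CPM (SD, n = 8) and 240 ± 66.7 CPM (SD, n = 10), with a fitted difference of −25.7%, a log2 fold change of −0.43 (SE 0.14, adjusted p = 0.0483) and an exact permutation p of 0.00937. Without mouse 22 the log2 fold change was −0.55 (adjusted p = 0.00415). Over the 18 fits that left out 1 mouse the adjusted p ranged from 0.00415 to 0.103 and the call held in 3, those without WT mouse 4, WT mouse 6 or A226Y mouse 22.

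*Ppp1r3c* (ENSMUSG00000067279; chromosome 19, 36731731 to 36736653, minus strand), encoding the targeting subunit PTG, was at 11.8, 27.6 and 36.4 CPM in WT mice and at 13.5, 18 and 33.3 CPM in A226Y mice, wholly within the WT range. Its log2 fold change was −0.37 (SE 0.21, adjusted p = 0.238). *Ppp1r3g* (ENSMUSG00000050423; chromosome 13, 35958839 to 35970388, plus strand), whose protein is known as a targeting subunit that changes between fasting and feeding, was at 0.429, 1.72 and 5.25 CPM in WT mice and at 1.1, 1.94 and 6.32 CPM in A226Y mice. It was the only member with a positive log2 fold change (0.31, SE 0.45, adjusted p = 0.693). Both genes thus varied several-fold between mice of 1 genotype, and neither differed between genotypes beyond that spread.

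**Figure D2:**
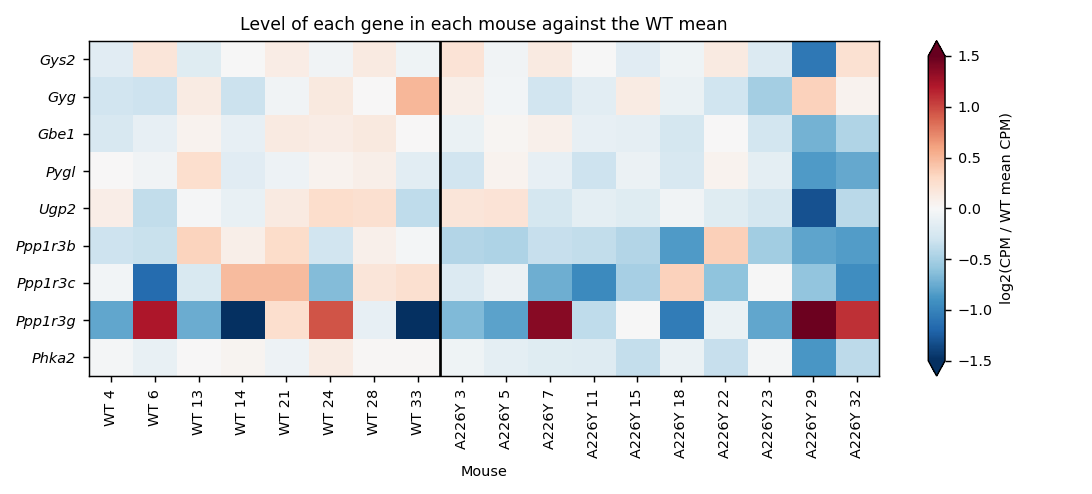
Level of each of the 9 genes in each mouse as log2 of CPM over the WT mean (colour scale cut at the ends of its bar), with the WT mice left of the black line. The *Ppp1r3b* row is blue in 9 of 10 A226Y mice, the *Ppp1r3g* row runs from blue to red in each genotype, and the column of A226Y mouse 29 is the darkest for *Gys2*, *Ugp2* and *Phka2*.

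The spread of the 2 variable targeting subunits was not independent. With the mean of each genotype subtracted, log2 CPM of *Ppp1r3c* and *Ppp1r3g* gave Pearson r = −0.71 over 18 mice (permutation p = 0.00204, adjusted p = 0.0334 over the 36 pairs of members) and Spearman rho = −0.68 (permutation p = 0.00317, adjusted p = 0.0666). The mice were shuffled within genotype. Pearson's r was −0.71 within WT and −0.70 within A226Y, and it was −0.61 without the 2 mice farthest from the median of *Ppp1r3c* (WT mouse 6 and A226Y mouse 18). *Ppp1r3g* was high in A226Y mice 7, 29 and 32 (5.87, 6.32 and 4.85 CPM) and in WT mice 6 and 24 (5.25 and 4.37 CPM), and at most 2.70 CPM in the other 13. *Ppp1r3c* lay between 11.8 and 17.4 CPM in those 5 mice, but A226Y mice 11 and 22 had similar levels (13.5 and 17.3 CPM) with only 1.75 and 2.12 CPM of *Ppp1r3g*. *Igfbp1*, 1 of the 12 fasting genes described below, was at 204, 685 and 217 CPM in A226Y mice 7, 29 and 32. Every other mouse had at most 117 CPM of it. WT mice 6 and 24 did not share the high level, with 65.7 and 28.4 CPM of *Igfbp1*. Other such genes were mixed in mouse 29. *G6pc* was the highest of 18 mice (705 CPM). The fasting gene *Pck1* (4687 CPM) and the feeding gene *Thrsp* (55.5 CPM) ranked 11 and 9 from the lowest. Whether these levels follow feeding was not tested.

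**Figure D3:**
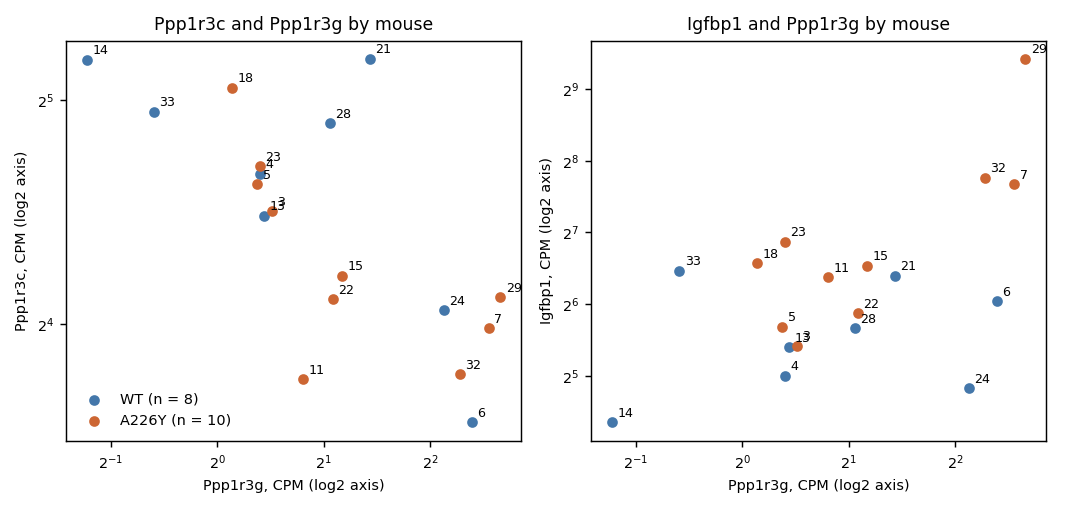
*Ppp1r3c* (left) and *Igfbp1* (right) against *Ppp1r3g*, all in CPM on log2 axes, with each mouse as a numbered point (blue WT, orange A226Y). *Ppp1r3c* falls as *Ppp1r3g* rises in both genotypes (r = −0.71 and −0.70), while *Igfbp1* is high (204 to 685 CPM) at high *Ppp1r3g* in A226Y mice 7, 29 and 32 and not in WT mice 6 and 24.

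Among the other pairs of members, 4 passed with Pearson's r and all were positive. After the same centring, *Gbe1* and *Pygl* gave r = 0.79 (rho = 0.66), *Gbe1* and *Ugp2* r = 0.73 (rho = 0.62), *Pygl* and *Ugp2* r = 0.68 (rho = 0.48), and *Ugp2* and *Phka2* r = 0.81 (rho = 0.54), each with a Pearson permutation p adjusted to 0.0334. Without the 2 mice farthest from the median these r values were 0.52, 0.42, 0.38 and 0.53. Without mouse 29 alone they were 0.66, 0.47, 0.44 and 0.49, and no Spearman correlation among the 36 had an adjusted p under 0.05. *Gys2* and *Pygl*, the opposing enzymes of synthesis and breakdown, gave r = 0.37 (rho = −0.02, adjusted permutation p = 0.415 for r), and no pair with *Gys2* or *Gyg* passed. The log2 ratio of *Gys2* to *Pygl* was −0.76 ± 0.23 in WT (SD, n = 8) and −0.58 ± 0.36 in A226Y mice (SD, n = 10).

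A226Y mouse 29 held the lowest level of all 18 mice for 5 of the 9 genes: *Gys2* (88.8 CPM), *Gbe1* (80.7), *Pygl* (175), *Ugp2* (149) and *Phka2* (13.8). It also held the highest *Ppp1r3g* (6.32 CPM). The acute phase gene *Saa1*, chosen after its values were seen, was at 6102 CPM in this liver, against 10.5 to 28.8 CPM in the other A226Y mice and 14.9 to 556 CPM in WT mice. The part of this state in the group comparison was not tested beyond leaving the mouse out.

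Likeness of other genes was measured as Pearson's r of log2 CPM with genotype means subtracted, over 18 mice and 11941 genes of at least 1 CPM, and is a description without a test. The genes most like *Ppp1r3b* were *Pik3r1*, a regulatory subunit of phosphoinositide 3-kinase (r = 0.78), *Gda*, guanine deaminase (r = 0.77), and *Pik3cb*, a catalytic subunit of the same kinase (r = 0.75). Without mouse 29 these values were 0.76, 0.76 and 0.73. Those most like *Phka2* were the aquaglyceroporin gene *Aqp9* (r = 0.96), the organic anion transporter gene *Slco1b2* (r = 0.93) and *Gm4952* (r = 0.93), with 0.91, 0.78 and 0.77 without mouse 29. All points share the libraries and their scaling.

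Among the other genes of the glycogen pathway 25 of 26 were tested (not *Phkg1*, the muscle catalytic subunit of phosphorylase kinase). Of these 2 were called higher and 0 lower (unadjusted, 5 higher and 1 lower), the log2 fold changes having a median of 0.05. Over all tested genes 7.27% were called higher and 7.03% lower (unadjusted, 14.9% and 14.7%), so 2 of 25 is near the background share. The ranges of both genotypes were separate in 0.637% of all tested genes. The 2 called genes act on glycogen synthase in opposite ways. *Gsk3b*, a kinase that inactivates the synthase, was at 30.8 to 36.5 CPM in WT mice and 37.8 to 44.6 CPM in A226Y mice, so that all 10 A226Y mice were above every WT mouse (log2 fold change 0.26, SE 0.04, adjusted p = 0.002). *Ppp1cb*, a catalytic subunit of protein phosphatase 1, was at 119 to 139 and 128 to 175 CPM, with 9 of 10 A226Y mice above every WT mouse (0.24, SE 0.06, adjusted p = 0.0125). Neither was called once an offset for transcript length was fitted. The phosphorylase kinase subunits *Phkb* (0.04, SE 0.08) and *Phkg2* (0.13, SE 0.08), and the phosphatase subunit *Ppp1ca* (−0.01, SE 0.07) did not pass the test.

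Of the 9 genes for glucose entry and exit 2 were called lower and 0 higher (unadjusted, 3 lower and 0 higher), the log2 fold changes having a median of −0.19. Over all tested genes the shares were 7.03% lower and 7.27% higher. Of the called genes *Gckr* was at 112 to 163 CPM in WT mice and at 71.2 to 133 CPM in A226Y mice, with 10 of 10 A226Y mice below the WT mean (log2 fold change −0.41, SE 0.10, adjusted p = 0.0098). The glucose transporter gene *Slc2a2* (−0.05, SE 0.13) and glucose-6-phosphatase *G6pc* (0.30, SE 0.21) did not pass the test.

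Of the 19 genes that carry hormone signals to glycogen, 2 were called higher and 3 lower (unadjusted, 5 and 5), the log2 fold changes having a median of −0.02. The shares over all tested genes were 7.27% and 7.03%. *Adra1b*, the adrenergic receptor through which catecholamines start glycogen breakdown by calcium, was at 47.4 to 76.5 CPM in WT mice and at 23.4 to 46.8 CPM in A226Y mice, and all 10 A226Y mice lay below every WT mouse (log2 fold change −0.82, SE 0.11, adjusted p = 0.00066). *Pdpk1*, the kinase that activates Akt after insulin, was at 32.7 to 40.5 and 42.7 to 53.6 CPM with all 10 above (0.38, SE 0.06, adjusted p = 0.000772). Calmodulin 3 (*Calm3*), 1 of 3 genes for the calcium-binding delta subunit of phosphorylase kinase, fell by 0.24 on the log2 scale (SE 0.06, adjusted p = 0.018). For protein kinase A, which phosphorylates phosphorylase kinase, the catalytic *Prkaca* fell by 0.17 (SE 0.06, adjusted p = 0.0457) and the inhibitory *Prkar1a* was higher by 0.17 (SE 0.05, adjusted p = 0.0361). Over the 18 fits without 1 mouse the call of *Prkaca* was lost in 11 (adjusted p up to 0.0908) and that of *Prkar1a* in 7 (up to 0.0754). The other protein kinase A genes of the list, the catalytic *Prkacb* (−0.08, SE 0.07) and the regulatory *Prkar2a* (0.05, SE 0.05) and *Prkar2b* (0.12, SE 0.24), did not pass. The glucagon receptor gene *Gcgr* (−0.21, SE 0.08, adjusted p = 0.0676) did not pass either.

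**Figure D4:**
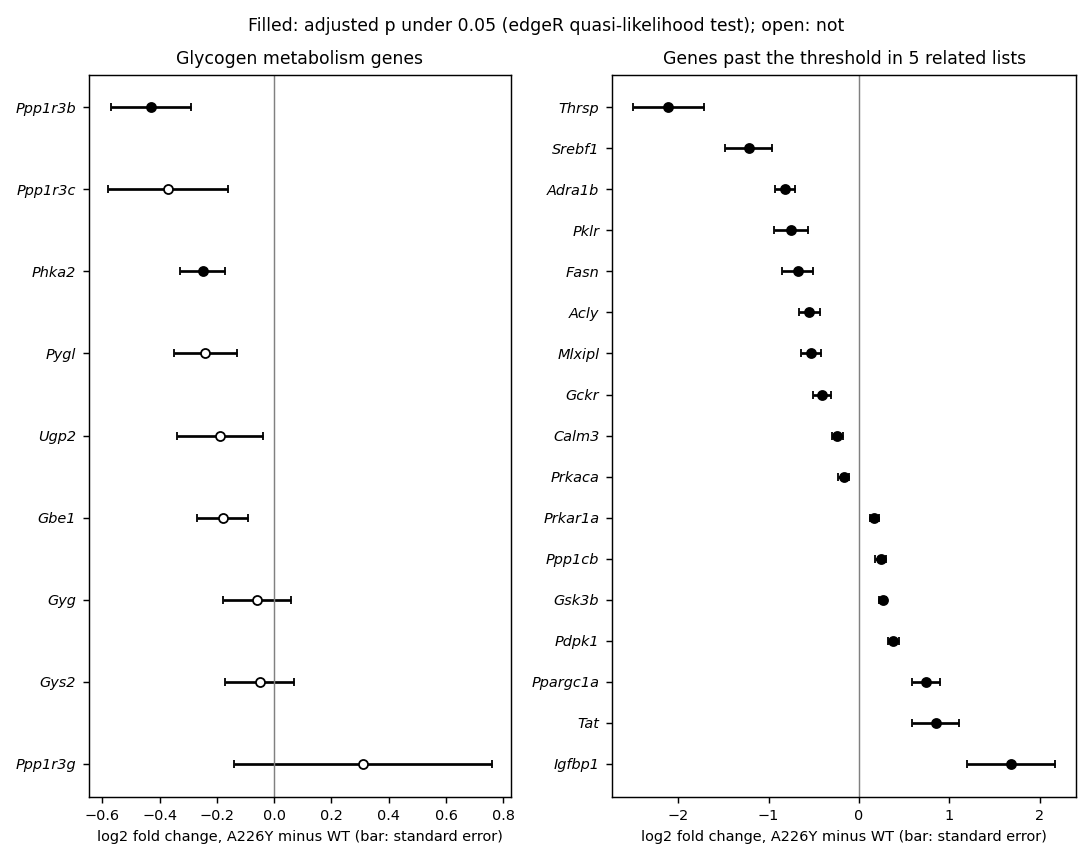
Log2 fold change, A226Y minus WT, with its standard error for the 9 genes (left) and for the called genes of the 5 lists on other glycogen genes, glucose entry and exit, hormone signalling, fasting and feeding (right, on its own scale, without genes whose values are not reported); filled points had an adjusted p under 0.05. *Ppp1r3b* and *Phka2* are the filled points on the left, at −0.43 and −0.25, and the genes on the right run from *Thrsp* (−2.11) to *Igfbp1* (1.68).

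Some of the listed genes that follow feeding and fasting in liver differed between the groups, and the lists were not tested as sets. Over all tested genes 7.27% were called higher and 7.03% lower. Of 12 feeding genes 6 were called lower and 0 higher (unadjusted, 7 lower and 1 higher), the log2 fold changes having a median of −0.54: *Thrsp* (−2.11, SE 0.39, adjusted p = 0.00285), *Srebf1* (−1.22, SE 0.26, adjusted p = 0.00551), *Pklr* (−0.75, SE 0.19), *Fasn* (−0.68, SE 0.17), *Acly* (−0.55, SE 0.12) and *Mlxipl* (−0.53, SE 0.11), all of which serve or control glycolysis and fat synthesis. Of 12 fasting genes 3 were called higher and 0 lower (unadjusted, 8 higher and 0 lower), with a median of 0.64: *Igfbp1* (1.68, SE 0.49), *Tat* (0.85, SE 0.26) and *Ppargc1a* (0.74, SE 0.16). Without A226Y mouse 29 the log2 fold change of *Igfbp1* was 1.05 (SE 0.34, adjusted p = 0.0384). The call of *Igfbp1* was lost without WT mouse 13, 14 or 24 (adjusted p up to 0.0598), and that of *Tat* without A226Y mouse 7 or 32 or WT mouse 14, 21, 24 or 33 (up to 0.0693). With 4 surrogate variables as covariates the calls in the feeding and fasting lists fell from 9 to 2. Of 15 clock genes tested out of 16 (not *Npas2*), 1 was called higher (*Clock*, 0.61, SE 0.09, with all 10 A226Y mice above every WT mouse) and 1 lower. The part of feeding or hour of killing in the levels of the 9 genes was not tested.

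Marker genes of the cell types a liver sample can hold were read beside these values. Their counts stand against 7.27% of all tested genes called higher and 7.03% called lower. The 8 hepatocyte markers were all expressed, with a sum of 86529 to 176649 CPM in WT and 72249 to 142164 CPM in A226Y mice, and *Cps1* was called higher and *Asgr1* lower. Most of that sum was *Alb* (means of 90853 CPM in WT and 96061 CPM in A226Y mice). Of 9 Kupffer cell and leukocyte markers 2 were called lower (*Cd74* and *Clec4f*, the latter not without WT mouse 14, adjusted p = 0.0577), and 8 of the 9 had negative log2 fold changes (median −0.41). Their sum was 407 to 920 CPM in WT mice (median 626) and 267 to 1047 CPM in A226Y mice (median 367). Of 5 stellate cell and fibroblast markers 2 were lower (*Col1a1* and *Col3a1*), with sums of 287 to 363 and 298 to 356 CPM. Most of these sums was *Dcn* (means of 218 CPM in WT and 246 CPM in A226Y mice). Its log2 fold change was positive and not called (0.18, SE 0.07, adjusted p = 0.0913). None of the endothelial (5 tested), bile duct (5), adipocyte (1 of 5) and red cell markers (4) was called by edgeR, and at an unadjusted p under 0.05 there were 1 endothelial and 1 bile duct gene. The 6 skeletal muscle markers summed to at most 0.926 CPM in WT mice and reached 13.7 CPM in 1 A226Y mouse, number 23, where *Acta1* was at 4.97 and *Ckm* at 3.25 CPM. That mouse held 2.10 CPM of the muscle phosphorylase *Pygm*, the highest of 18, and 285 CPM of *Pygl*, near the middle of its group. No marker was at 0 in all mice, and the part of cell composition in the levels of the 9 genes was not tested.

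**Figure D5:**
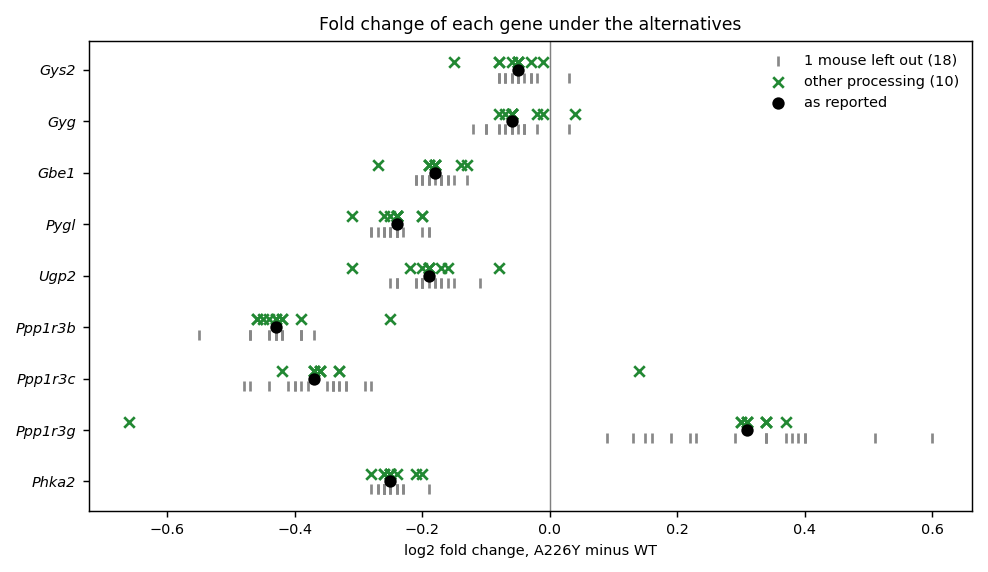
Log2 fold change of each of the 9 genes, A226Y minus WT, as reported (black), under 10 other processing choices (green crosses) and with each of the 18 mice left out in turn (grey ticks). *Ppp1r3b* stays between −0.55 and −0.25 and *Phka2* between −0.28 and −0.19, while *Gys2*, *Gyg*, *Ppp1r3c* and *Ppp1r3g* have values on both sides of 0.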

How the data were processed

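Liver RNA of 10 A226Y and 8 WT mice was measured by RNA-Seq with 1 library per mouse. The authors deposited whole-number counts per Ensembl gene (22524 genes), not normalized. The methods name RSEM with an Ensembl annotation, whereas the submitters' processing notes list bcl2fastq, MultiQC, fastp, STAR, featureCounts and GRCm38, and which of these made the counts, and whether strand was used, is not given in the sources used here. Reads in overlapping or near-identical genes may therefore be split or shared.

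A gene was tested if it reached 10 counts in 50% or more of either genotype's mice (13353 genes). Symbols and coordinates came from GENCODE M21 on GRCm38 (22291 identifiers matched, 233 not). Counts were compared with edgeR 4.0.16 in R 4.3.3 (TMM scaling, quasi-likelihood test, no covariates, Benjamini-Hochberg adjustment), which gave a common biological coefficient of variation of 0.194. For each member an exact permutation test, two-sided, was run on log2 CPM (prior count 2), and its smallest possible p is 2.29e-05. Correlations used 100000 shuffles within genotype. No pair of mice of 1 genotype was as close as sampling noise (chi-square per degree of freedom of at least 19.7), and mouse numbers name separate animals. Scripts were tested on simulated counts.

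The members and gene lists were chosen with earlier results of these data known. All 9 members are named, other genes of the lists where their adjusted p was under 0.05 (at most 8 a list) or where the text gives a value for a pathway step that did not pass, and the 3 genes most like each called member. Alternatives were RLE, upper-quartile and library-size scaling, 2 other filters, limma-voom 3.58.1, DESeq2 1.42.0, covariates from sva 3.50.0 (4 surrogate variables), offsets for GC content or for transcript length (lowess span 0.3, pseudocount 0.5), a prior count of 0.5 and leaving out each mouse. The correlations without A226Y mouse 29 were added after seeing the data. A few single genes of the lists count in the totals but are not reported by value.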

Additional observations from a re-analysis of the deposited data

Results flagged for a closer look

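A sample was marked where its gap to the nearest other mouse of its genotype was a larger share of that genotype's whole range than Dixon's 95% critical value allows. Over the 9 genes and 2 genotypes 18 such tests were made (critical value 0.466 for 10 mice), and chance marks about 1 in 20 groups. *Ppp1r3b* in A226Y mouse 22 stood at 412 CPM, above the other 9 A226Y mice (179 to 254 CPM), with a gap of 0.678 of the range. A226Y mouse 29 was marked for 3 genes as the lowest of its group, namely *Gys2* at 88.8 CPM (gap 0.554 of the range), *Phka2* at 13.8 CPM (0.496) and *Ugp2* at 149 CPM (0.467, only just past the critical value). The same mouse was the highest of all 18 for *Saa1* (6102 CPM), *Saa2* (7120 CPM), *Lcn2* (682 CPM) and *Orm2* (1107 CPM), acute phase genes chosen after their values were seen.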

How the results depend on the processing

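The count of 2 called members became 0 with RLE size factors, with library size only, without the low-count filter and with 4 surrogate variables, and 0 to 2 when 1 mouse was left out. With the GC offset it stayed 2 but held *Gbe1* (−0.27, adjusted p = 0.0353) in place of *Phka2*. Called other glycogen genes went from 2 to 1 with surrogate variables and 0 with the length offset, and were 2 to 5 over the fits without 1 mouse (5 without WT mouse 6). Called feeding and fasting genes went from 9 to 2 with surrogate variables, and were 7 to 12 without 1 mouse. Of all genes 1910 were called, 248 with surrogate variables and 1255 (without WT mouse 14) to 2560 (without A226Y mouse 29) when 1 mouse was left out. Members with an exact permutation p under 0.05 numbered 3, and 2 to 4 without 1 mouse. Directions turned for 4 members that were not called: *Gys2* (0.03 in both tests without A226Y mouse 29, the other fits without 1 mouse reaching down to −0.08 and, in the permutation test, −0.12), *Gyg* (0.04 with surrogate variables, and 0.03 or, in the permutation test, 0.02 without WT mouse 33, the others reaching down to −0.12 and −0.10), *Ppp1r3c* (0.14 with surrogate variables) and *Ppp1r3g* (−0.66 with surrogate variables). Of the 56 alternative fits of *Ppp1r3b* and *Phka2*, 36 lost the call and 20 kept it, all with the same direction. Of the 196 fits of the 7 members that were not called, 190 kept their direction without a call, 1 gained a call and 5 turned. Under the other scalings and the length and GC offsets, the median log2 fold change of all genes moved at most to 0.039 (library size only). No paired analysis was possible because the genotypes share no mouse numbers. The causes of these changes were not tested. The lowest count of any member was 11 reads (*Ppp1r3g* in 1 WT mouse), where counting error is largest relative to the level.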
